A study of Mus musculus with 6 samples.

Results

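Tuft cells are rare chemosensory cells of the intestinal epithelium, and 36 genes that mark them were examined here in sorted intestinal stem cells of mice. The genes were chosen by name as known tuft cell genes, with earlier results of these data known. Each matched 1 of the 53379 gene IDs in the count files. They comprise 5 transcription factors, 8 genes of taste-type signalling, 5 enzymes and helpers of eicosanoid synthesis, 10 genes of immune-type signalling, 3 cytokine and cytokine receptor genes and 5 other markers (Dclk1, Avil, Nrgn, Kctd12 and Chat). All mice were adults of the C57BL/6 strain and carried Lgr5-EGFP-IRES-CreERT2 and Rosa-tdTomato, so that the promoter of Lgr5, a receptor gene of crypt stem cells, drove both the green reporter and the tamoxifen-activated Cre. The 3 control libraries came from mice with these alleles alone, and the 3 libraries labelled Klf5-KO came from mice that also carried Klf5fl/fl. Tamoxifen (1 mg daily for 5 days) was given to both groups. Proximal small intestine gave the crypts, which were freed in 5 mM EDTA and dissociated for 45 minutes, and the brightest Lgr5-EGFP cells were sorted for RNA sequencing after depletion of ribosomal RNA. Whether the libraries of a group came from separate mice is not stated, so the p-values cover only library-to-library spread, which may in part be technical.

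A tuft cell senses luminal signals through a cascade shared with taste cells. A receptor activates a G protein, phospholipase C releases calcium through inositol trisphosphate receptors, and calcium opens the cation channel TRPM5. The cell answers with interleukin 25, which acts on immune cells, and with lipid mediators made from arachidonic acid, the cysteinyl leukotrienes and prostaglandins. Tuft cells also carry many signalling proteins better known from leukocytes, and their fate depends on the transcription factor POU2F3.

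The libraries held 61563625 to 77666540 counts. Klf5, a zinc finger transcription factor gene and the target of the deletion, had the higher level where Klf5-KO was the label, at 892 ± 23.1 against 513 ± 33.1 CPM (counts scaled to a common library size; SD, n = 3 each). The whole-gene count thus showed no loss under that label. The files sum all exons of Klf5, so the floxed exons cannot be seen alone and the deletion was not checked. Directions are therefore given by label, Klf5-KO relative to control. Lgr5, the marker used for the sort, was detected in every library but fell, from 128 to 163 CPM among controls to 81.2 to 96.8 CPM among libraries labelled Klf5-KO (log2 fold change −0.68, SE 0.11, adjusted p = 0.0027, edgeR). Of 8 crypt stem cell markers, 7 fell and none rose, with a median log2 fold change of −0.81, and their part in the tuft cell gene values was not tested. Among controls, replicate 3 lay far from the others on the second principal component and in its Paneth cell markers, whose summed level was 16900 CPM against 1470 and 1740 CPM. The same sum was 7820, 7740 and 9710 CPM among libraries labelled Klf5-KO, above controls 1 and 2 and below control 3, and none of the 9 markers was called. Its part in the tuft cell gene values was not tested. In a bulk sample, more cells of a type and more RNA of a gene per cell cannot be told apart.

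Tuft cell genes of several roles were higher among libraries labelled Klf5-KO. Of the 36 genes, 33 passed the filter on low counts. Of these, 17 rose and none fell at an adjusted p under 0.05 (edgeR's quasi-likelihood test, adjusted over 19339 genes), against 13.3% of all tested genes called higher and 12.5% called lower. At an unadjusted p under 0.05, 24 were higher and 1 was lower. With DESeq2 the calls were 22 higher and 1 lower, and with limma-voom 17 higher and none lower. The median log2 fold change of the 33 was 0.78, against −0.01 over all tested genes. The 3 Klf5-KO values all exceeded the 3 control values for 23 of the 33, against 22.2% of all tested genes. As the genes were chosen with earlier results of these data known, these contrasts with all genes are descriptions only. The genes not tested were Gnb3, Il25 and Tslp, which had at most 17 counts in any library. All 5 eicosanoid genes rose, as did 6 of 10 immune-type genes, 3 of 5 other markers, 2 of 7 tested taste-type genes and 1 of 5 transcription factors.

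**Figure D1:**
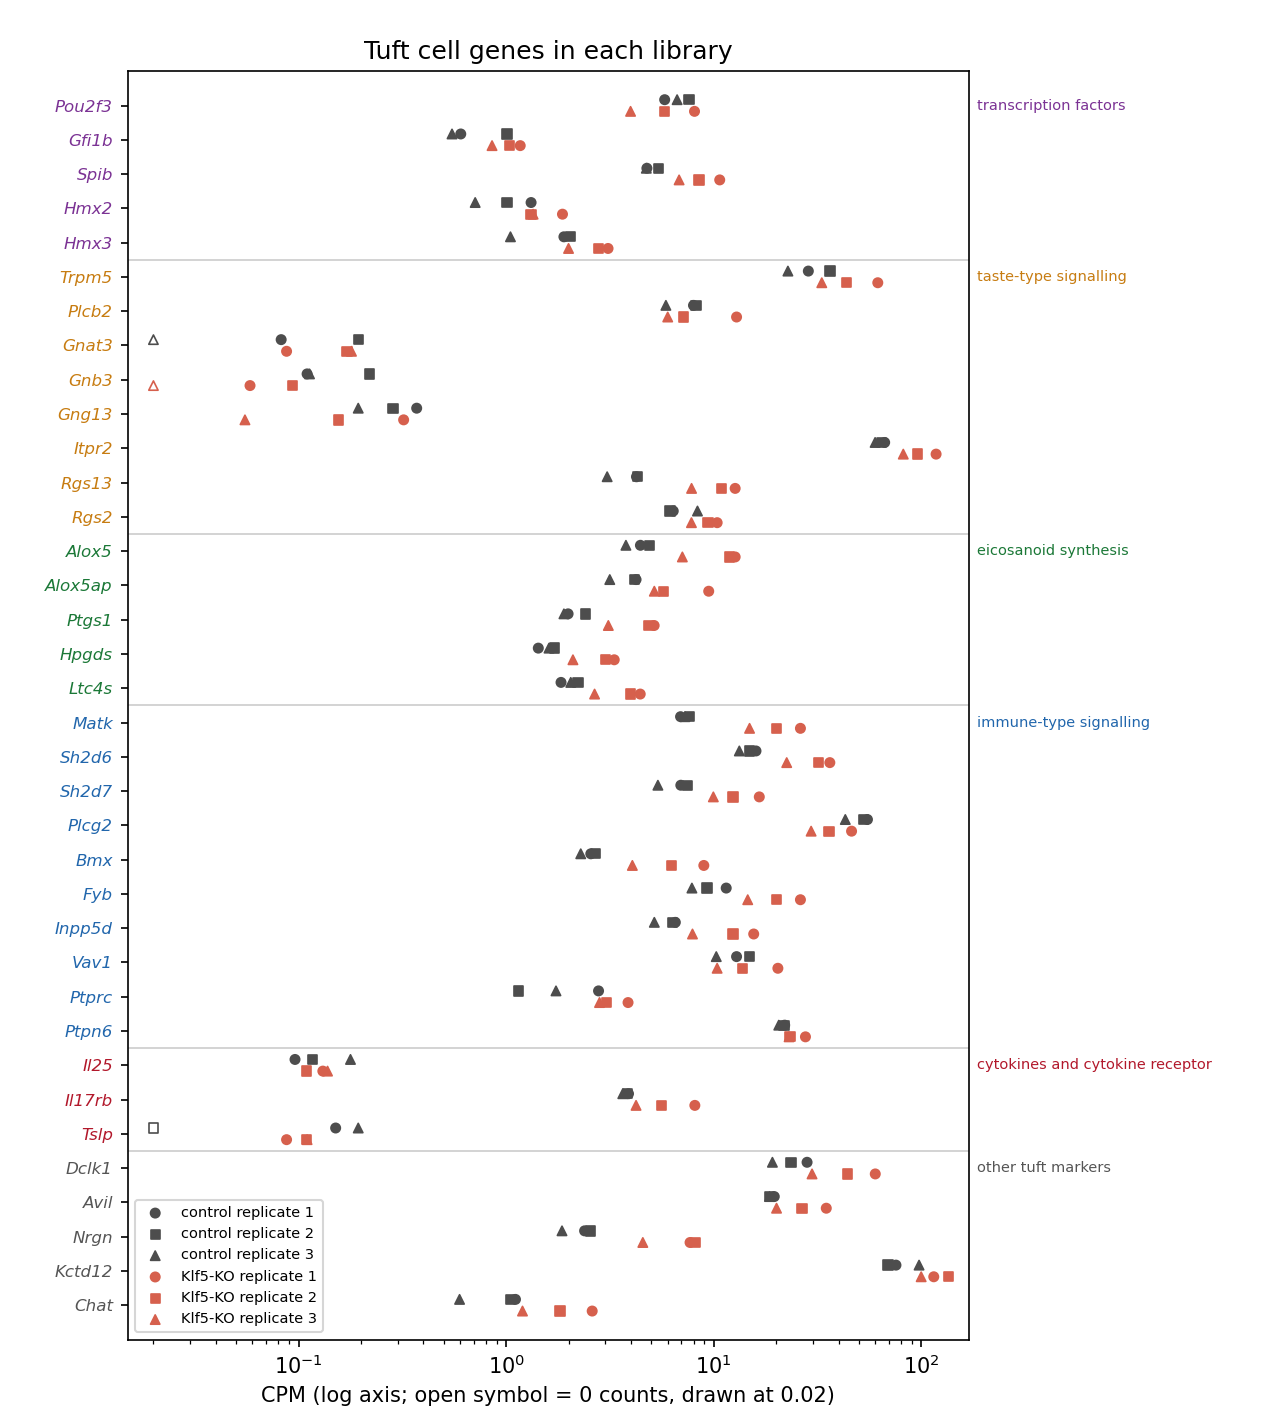
Level of each of the 36 tuft cell genes in every library, as CPM on a log axis, with controls in grey, libraries labelled Klf5-KO in red, and genes grouped by role; an open symbol marks 0 counts. The 5 eicosanoid genes and Matk, Sh2d6, Rgs13 and Nrgn show no overlap between the groups, while Pou2f3, Plcb2 and Vav1 do.

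Promoter sequence is shown for 7 of the genes that rose, 4 from the eicosanoid role, Matk from the immune-type role, Rgs13 from the taste-type role and Kctd12 as the other gene with an octamer. The sequences are RefSeq's for GRCm38.p6 and run 5′ to 3′ on the strand of the gene. They end at the base before the RefSeq start, except that of Ltc4s, 244 to 85 bases before it, and those of Hpgds and Kctd12, 30 bases around the octamer. The stretch of Hpgds lies partly inside the gene as the count files place it, which ends at 65144908. Capitals mark matches on either strand to the octamer bound by POU-domain factors (ATGCAAAT), to the CACCC box (CACCC) or to the GC box (CCGCCC), the latter both bound by Kruppel-like factors.
Alox5, chr6:116461179-116461338, minus strand: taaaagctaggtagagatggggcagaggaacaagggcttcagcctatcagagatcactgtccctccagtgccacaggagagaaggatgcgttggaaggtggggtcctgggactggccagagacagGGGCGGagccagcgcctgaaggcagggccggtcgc
Ptgs1, chr2:36230266-36230425, plus strand: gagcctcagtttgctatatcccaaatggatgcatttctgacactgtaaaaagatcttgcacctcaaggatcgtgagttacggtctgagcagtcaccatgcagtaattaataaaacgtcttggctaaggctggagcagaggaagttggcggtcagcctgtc
Ltc4s, chr11:50238617-50238776, minus strand: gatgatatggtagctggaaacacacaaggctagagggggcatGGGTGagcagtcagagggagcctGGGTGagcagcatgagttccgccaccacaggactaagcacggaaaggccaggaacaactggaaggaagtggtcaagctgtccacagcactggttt
Hpgds, chr6:65144886-65144915, minus strand: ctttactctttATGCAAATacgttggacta
Kctd12, chr14:102982779-102982808, minus strand: cagcgtttagcATGCAAATgcattccccgc
Matk, chr10:81252775-81252934, plus strand: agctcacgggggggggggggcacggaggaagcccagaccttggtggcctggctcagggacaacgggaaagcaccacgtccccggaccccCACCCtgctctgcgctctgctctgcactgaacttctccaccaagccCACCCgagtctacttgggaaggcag
Rgs13, chr1:144177373-144177532, minus strand: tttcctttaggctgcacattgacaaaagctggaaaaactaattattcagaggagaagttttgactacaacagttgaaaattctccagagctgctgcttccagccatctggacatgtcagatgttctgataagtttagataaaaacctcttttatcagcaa

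Promoter windows of 300 bases, 250 before and 50 after a start, were found for 31 of the 36 genes, in 36 windows. The octamer was in 2 member windows (5.56%), those of Hpgds and Kctd12, against 1.74% of 32851 windows of the same length. The CACCC box was in 25 (69.4%) against 57.5% of all windows. The GC box was in 17 (47.2%) against 35.7% of all windows. The stretch shown for Matk holds 2 CACCC boxes, and that for Rgs13 holds none of the 3 motifs. A match is a description of the letters and shows no binding.

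Every eicosanoid gene rose. Alox5 encodes the lipoxygenase that starts leukotriene synthesis (chromosome 6, 116410077 to 116461178, mm10). It stood at 4.44, 4.91 and 3.78 CPM in control replicates 1, 2 and 3 and at 12.7, 11.9 and 7.07 CPM in Klf5-KO replicates 1, 2 and 3. All 3 Klf5-KO values exceeded the highest control, for a log2 fold change of 1.27 (SE 0.22, adjusted p = 0.0034, edgeR). Its activating protein, encoded by Alox5ap, presents arachidonic acid to the lipoxygenase, and its gene was at 4.23, 4.16 and 3.16 CPM among controls and 9.47, 5.73 and 5.18 CPM among libraries labelled Klf5-KO. Klf5-KO replicate 1 was well above the other libraries (log2 fold change 0.82, SE 0.24, adjusted p = 0.035, edgeR). Ltc4s, the leukotriene C4 synthase gene that makes the first cysteinyl leukotriene, was at 1.84, 2.22 and 2.05 CPM among controls and at 4.43, 3.99 and 2.67 CPM among libraries labelled Klf5-KO. The groups did not overlap (log2 fold change 0.86, SE 0.22, adjusted p = 0.021, edgeR).

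Both genes of the prostaglandin branch rose. Ptgs1, the gene of cyclooxygenase 1, was measured at 1.99, 2.41 and 1.90 CPM among controls and at 5.17, 4.84 and 3.11 CPM among libraries labelled Klf5-KO. Its level was 2.08-fold higher (log2 fold change 1.05, SE 0.23, adjusted p = 0.0094, edgeR), again without overlap. Hpgds, the hematopoietic prostaglandin D synthase gene, rose from 1.43, 1.71 and 1.61 CPM to 3.32, 3.02 and 2.1 CPM in replicates 1, 2 and 3. Its lowest Klf5-KO value lay close to its highest control value, and the difference on the log2 scale was 0.83 (SE 0.22, adjusted p = 0.025, edgeR). The calls of Alox5 and Ptgs1 held under each library left out, whereas those of Alox5ap, Hpgds and Ltc4s did not. The number of eicosanoid genes called was 2 without Klf5-KO replicate 1 or control replicate 1 and 3 without Klf5-KO replicate 2 or control replicate 2.

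Per kilobase of exon, Alox5ap and Ltc4s held most of the summed level of the 5 genes in every library. The shares depend on the length of all annotated exons. It was 1420 bases for Alox5ap and 1014 for Ltc4s, against 4106 for Alox5, 3884 for Ptgs1 and 6425 for Hpgds. Alox5ap made up 45.1, 40.7 and 37.7% among controls and 41.7, 32.0 and 40.0% among libraries labelled Klf5-KO. Ltc4s made up 27.3 to 34.2% over the 6 libraries, and Hpgds, the lowest, 3.23 to 4.25%. The share of Alox5 was 15.6 to 16.6% among controls and 18.9 to 23.1% among libraries labelled Klf5-KO.

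Other genes of eicosanoid synthesis, export and reception moved in both directions. Of 36 such genes, 23 were tested, and 6 rose and 6 fell (26.1% each), against 13.3% and 12.5% of all tested genes. The median log2 fold change of the 23 was 0.19. Pla2g4a, the cytosolic phospholipase that frees arachidonic acid from membranes, fell, from 56.4, 50.1 and 45.1 CPM among controls to 22.6, 19.6 and 21.0 CPM in Klf5-KO replicates 1, 2 and 3 (log2 fold change −1.26, SE 0.11, adjusted p = 7.3e-05, edgeR). Another phospholipase gene of the same group, Pla2g4c, rose from 2.83 ± 0.706 to 8.92 ± 2.64 CPM (adjusted p = 0.0020, edgeR). Slco2a1, the prostaglandin transporter gene, was at 31.9 ± 3.69 CPM against 13.4 ± 2.65 CPM (1.25 on the log2 scale, SE 0.15, adjusted p = 5.6e-04, edgeR). The gene of leukotriene A4 hydrolase, Lta4h, which leads to leukotriene B4, rose from 151 ± 5.16 to 206 ± 2.36 CPM. The inducible cyclooxygenase gene Ptgs2 was called higher but stood at no more than 0.249 CPM in any library. The cysteinyl leukotriene receptor gene Cysltr1 had 0 counts in all 6 libraries, which leaves room for 0.0389 to 0.0484 CPM depending on the library.

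**Figure D2:**
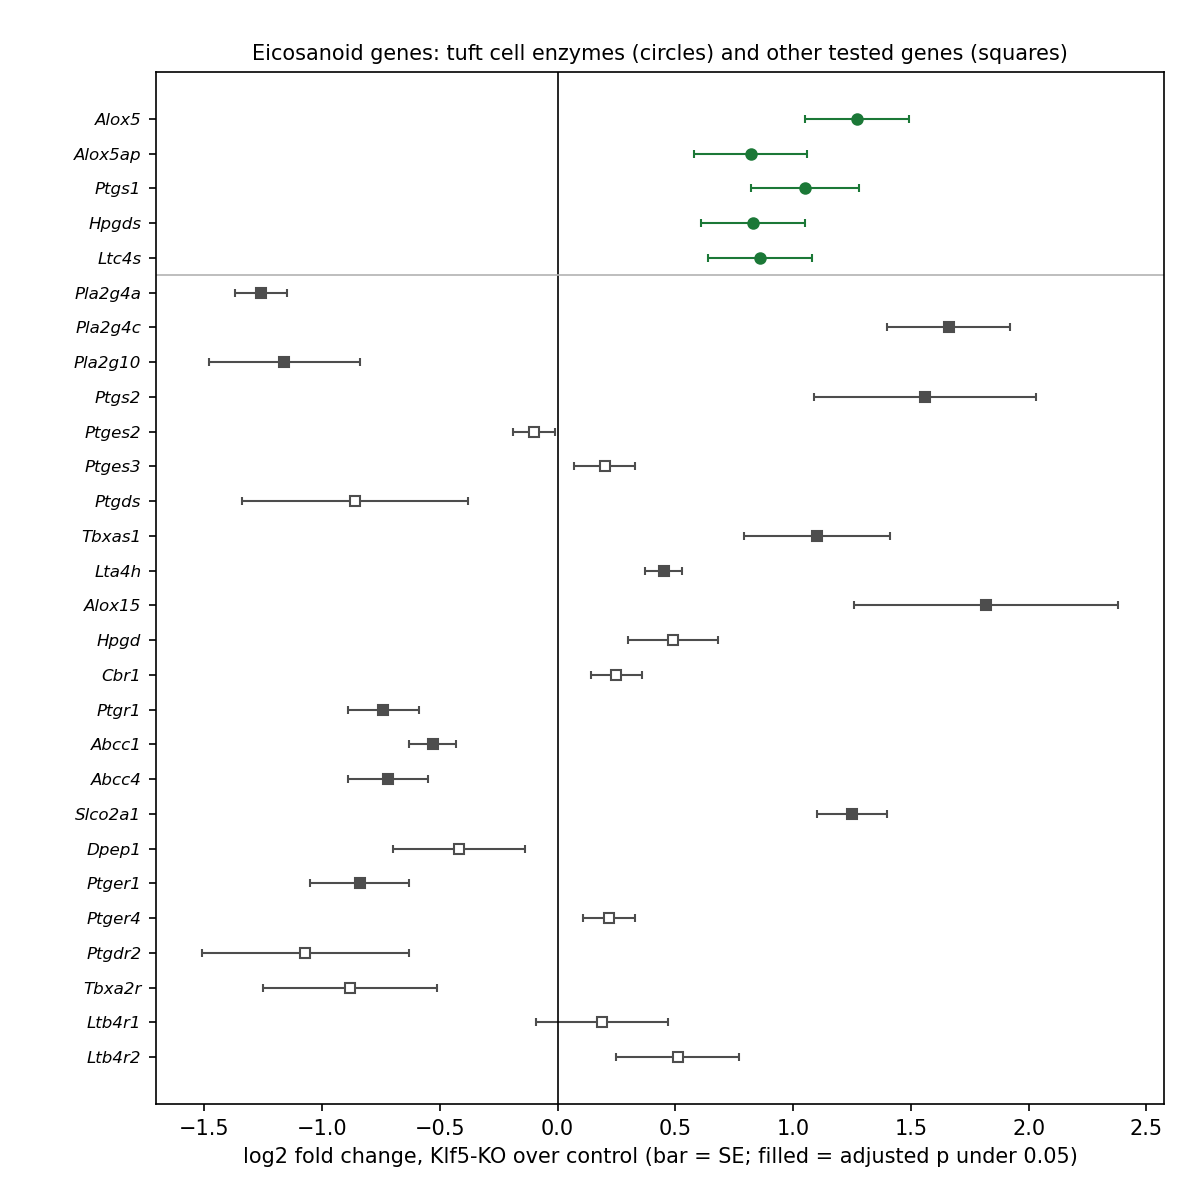
Log2 fold change (libraries labelled Klf5-KO over control) of the 5 tuft cell eicosanoid genes (circles) and of 23 other tested eicosanoid genes (squares); bars are SE and filled symbols have an adjusted p under 0.05. All 5 circles lie right of 0, from 0.82 to 1.27, while the squares spread to both sides.

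Of the 10 immune-type signalling genes 6 rose, by 0.97 to 1.49 on the log2 scale. Matk encodes a kinase that restrains Src-family kinases (chromosome 10, 81252935 to 81263365), and it stood at 6.93, 7.63 and 7.28 CPM among controls and 26.2, 20.1 and 14.9 CPM among libraries labelled Klf5-KO. Its lowest Klf5-KO value was far above the highest control (log2 fold change 1.49, SE 0.19, adjusted p = 6.2e-04, edgeR). Bmx, a Tec-family kinase gene on the X chromosome, was at 2.56, 2.70 and 2.29 CPM among controls and 8.97, 6.29 and 4.06 CPM among libraries labelled Klf5-KO (log2 fold change 1.35, SE 0.27, adjusted p = 0.0059, edgeR). The adapter gene Fyb rose from 11.5, 9.29 and 7.86 CPM to 26.2, 20.1 and 14.6 CPM (difference on the log2 scale 1.09, SE 0.21, adjusted p = 0.0058, edgeR). Of its exon bases, 4.29% are shared on its strand with the gene Gm7666, where reads could go uncounted.

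The genes of the SH2-domain adapters Sh2d6 and Sh2d7 both rose, with no overlap between the groups. Sh2d6 was at 16.0, 14.9 and 13.3 CPM among controls and 36.3, 31.9 and 22.5 CPM among libraries labelled Klf5-KO (log2 fold change 1.03, SE 0.17, adjusted p = 0.0022, edgeR). Sh2d7 was at 6.95, 7.5 and 5.39 CPM against 16.6, 12.4 and 9.97 CPM (log2 fold change 0.97, SE 0.20, adjusted p = 0.0073, edgeR). The lipid phosphatase SHIP1, which dampens phosphoinositide signalling, is encoded by Inpp5d, and this gene rose from 6.54, 6.34 and 5.18 CPM to 15.6, 12.4 and 7.91 CPM. The difference was 0.99 on the log2 scale (SE 0.23, adjusted p = 0.012, edgeR), and the call was lost without Klf5-KO replicate 1 (adjusted p = 0.053).

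The other 4 immune-type genes did not pass the test. Plcg2, the gene of a phospholipase C activated by tyrosine kinases, stood at 55.1, 52.8 and 43.1 CPM among controls and 46.2, 36 and 29.5 CPM among libraries labelled Klf5-KO. The groups overlapped, with a log2 fold change of −0.44 (SE 0.16, adjusted p = 0.074, edgeR). Plcg2 was called lower with DESeq2 (adjusted p = 0.035), without Klf5-KO replicate 1 (0.024) and without control replicate 3 (0.039). Vav1, a guanine nucleotide exchange factor gene, was at 10.3 to 14.9 CPM among controls and 10.4 to 20.4 CPM among libraries labelled Klf5-KO (adjusted p = 0.51, edgeR). Ptpn6, the gene of the phosphatase SHP-1, was at 20.6 to 22.0 and 23.1 to 27.7 CPM (0.20 on the log2 scale, SE 0.10, adjusted p = 0.18, edgeR).

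Ptprc, which encodes the leukocyte antigen CD45, was measured at 2.79, 1.15 and 1.74 CPM among controls and 3.87, 3.05 and 2.82 CPM among libraries labelled Klf5-KO (log2 fold change 0.78, SE 0.30, adjusted p = 0.091, edgeR). It was called higher with no low-count filter, with DESeq2 and without control replicate 1. The summed level of 15 T and NK cell markers was 28.4, 8.49 and 16.8 CPM among controls and 13.8, 9.75 and 12.6 CPM among libraries labelled Klf5-KO, in the same order as Ptprc among controls but not among libraries labelled Klf5-KO. None of the 10 tested T and NK cell markers rose and 2 fell, Cd4 (log2 fold change −2.17) and Cd247 (−0.77), and the other 5 markers had too few counts to test. The part of these cells in the Ptprc values was not tested. Among 14 leukocyte genes outside the members, 11 were tested, none rose and 2 fell (18.2%), Lcp1 (−1.29) and Arhgap45 (−1.66). Their summed level was 46.3 to 56.8 CPM among controls and 25.3 to 28.6 CPM among libraries labelled Klf5-KO. Most of it was Lcp1, which encodes an actin-bundling protein and went from 42.6 ± 4.24 to 17.4 ± 3.64 CPM. Of the tested genes of this list, 9 were not called. The mast cell markers, whose cells make the same eicosanoids, summed to 0.117 to 0.453 CPM among controls and 0.221 to 0.452 CPM among libraries labelled Klf5-KO. Hdc, the highest of these markers and the only tested gene among them, had 30, 9 and 13 counts among controls. Among libraries labelled Klf5-KO it had 10, 18 and 13 counts (log2 fold change −0.29, SE 0.51, adjusted p = 0.71, edgeR). Cpa3, a defining mast cell protease gene, had 0 counts in all 6 libraries. Of 7 tested myeloid markers 1 rose (14.3%), Cd14 (log2 fold change 0.84), and the summed level was 28.1 to 48.3 CPM against 40.6 to 50.8 CPM. Most of this sum was Cd68, which was not called, and Cd14, whereas Csf1r had 2 to 8 counts over the 6 libraries. B and plasma cell markers summed to 4.95 to 6.41 and 4.23 to 4.94 CPM, and Cd79b fell.

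**Figure D3:**
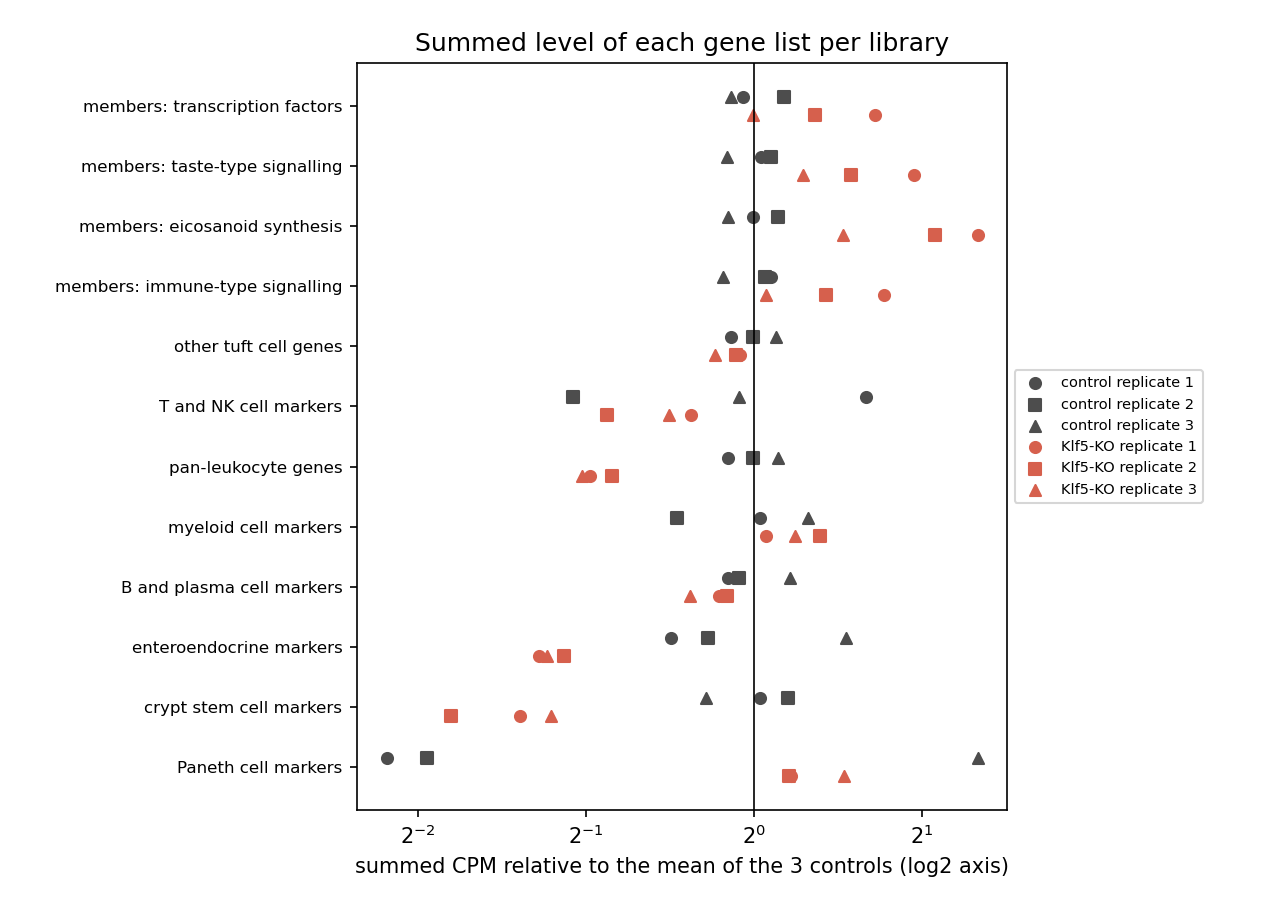
Summed CPM of each gene list per library, divided by the mean of the 3 controls, on a log2 axis, with controls in grey and libraries labelled Klf5-KO in red. The eicosanoid and taste-type sums of the 3 red libraries lie above all controls, and Itpr2 is the largest part of the taste-type sum. The transcription factor, immune-type, other tuft cell, myeloid and Paneth cell sums overlap between the groups. Plcg2, which was not called, is the largest part of the immune-type sum. Krt18, which fell, is the largest part of the other tuft cell sum, although 9 of that list's 21 tested genes rose and 3 fell. Red sums of the T and NK cell markers lie within the range of the controls. The pan-leukocyte, B and plasma cell, enteroendocrine and crypt stem cell sums of the red libraries lie below all controls. Lcp1, which fell, is the largest part of the pan-leukocyte sum.

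Of the 7 taste-type signalling genes tested 2 rose, and the G protein subunit genes had at most 27 counts in any library. Trpm5, the gene of the calcium-gated cation channel that ends the cascade (chromosome 7, 143069153 to 143094642), was at 28.6, 36.4 and 22.8 CPM among controls and 61.8, 43.8 and 33.2 CPM among libraries labelled Klf5-KO. Control replicate 2 lay above Klf5-KO replicate 3, and the difference did not pass (log2 fold change 0.66, SE 0.23, adjusted p = 0.059, edgeR). It passed with DESeq2, with no low-count filter, without Klf5-KO replicate 3 and without control replicate 2. Plcb2, the phospholipase C gene of taste cells, stood at 8.0, 8.23 and 5.89 CPM and at 12.9, 7.15 and 6.01 CPM, and only Klf5-KO replicate 1 exceeded the controls (log2 fold change 0.24, SE 0.27, adjusted p = 0.56, edgeR).

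Itpr2 and Rgs13 were the taste-type genes that rose. Itpr2, a calcium release channel gene, was at 66.7, 64.6 and 60.0 CPM among controls and at 118, 95.7 and 82.0 CPM among libraries labelled Klf5-KO (log2 fold change 0.63, SE 0.13, adjusted p = 0.0067, edgeR). Rgs13 encodes a protein that speeds the switching-off of G proteins, and it was at 4.25, 4.31 and 3.07 CPM against 12.7, 10.9 and 7.83 CPM. The lowest Klf5-KO value was above the highest control for both genes, and Rgs13 differed by 1.43 on the log2 scale (SE 0.21, adjusted p = 0.0014, edgeR). Rgs2, which encodes a regulator of the same family and lies near Rgs13 on chromosome 1, stood at 6.39, 6.16 and 8.36 CPM among controls and 10.4, 9.38 and 7.82 CPM among libraries labelled Klf5-KO. It was not called (log2 fold change 0.40, SE 0.17, adjusted p = 0.11, edgeR), and it passed when control replicate 3 was left out.

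The subunits of the taste G protein had few counts. Gnat3, the gene of the alpha subunit gustducin, had 6, 15 and 0 counts among controls and 6, 11 and 13 among libraries labelled Klf5-KO. Gng13, a gamma subunit gene, had 27, 22 and 12 counts against 22, 10 and 4 (log2 fold change −0.69, SE 0.55, adjusted p = 0.40, edgeR). The beta subunit gene Gnb3 had 8, 17 and 7 counts against 4, 6 and 0 and was not tested, as it did not pass the low-count filter. Its 3 Klf5-KO values all lay below its 3 control values. The log2 fold change of Gnat3 was 0.59 (SE 0.77, adjusted p = 0.61, edgeR).

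Other genes of the cascade, many of them general signalling genes, moved in both directions. Of 20, 14 were tested, and 3 rose and 3 fell (21.4% each), against 13.3% and 12.5% of all tested genes. The median log2 fold change of the 14 was −0.10. The G protein genes Gng5, Gnai3 and Gnai2 rose, with log2 fold changes of 0.44, 0.32 and 0.29. Gnat2, known as the cone transducin gene, was lower, at 1.51 ± 0.283 against 3.21 ± 0.141 CPM (log2 fold change −1.09, SE 0.20, adjusted p = 0.0044, edgeR). Plcb3 and the taste receptor gene Tas1r1 also fell, by 0.36 and 1.56 on the log2 scale, the latter at 0.272 CPM or less in every library.

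Among the transcription factors, 1 rose and the factor that sets tuft cell fate did not. Pou2f3 (chromosome 9, 43123939 to 43210369) was at 5.81, 7.60 and 6.67 CPM among controls and 8.09, 5.78 and 3.98 CPM among libraries labelled Klf5-KO. The Klf5-KO values spanned more than the range of the controls, and the difference on the log2 scale was −0.17 (SE 0.24, adjusted p = 0.64, edgeR). Spib, an Ets-family factor gene also used by B cells, was at 4.77, 5.41 and 4.74 CPM against 10.7, 8.49 and 6.82 CPM, without overlap (log2 fold change 0.80, SE 0.18, adjusted p = 0.011, edgeR). Its call held under each library left out.

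The remaining factor genes were low and did not pass. Gfi1b, a zinc finger repressor gene, was at 0.549 to 1.01 CPM among controls and 0.856 to 1.17 CPM among libraries labelled Klf5-KO (adjusted p = 0.26, edgeR). Hmx2 and Hmx3, homeobox genes that lie side by side on chromosome 7, were at 0.710 to 1.32 and 1.05 to 2.05 CPM among controls. In the libraries labelled Klf5-KO they were at 1.32 to 1.87 and 2.00 to 3.10 CPM, with log2 fold changes of 0.58 (SE 0.28) and 0.65 (SE 0.28).

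The cytokine genes were barely detected. Il25, the tuft cell cytokine gene, had 7, 9 and 11 counts among controls and 9, 7 and 10 among libraries labelled Klf5-KO. Tslp, an epithelial cytokine gene, had 11, 0 and 12 counts against 6, 7 and 8. Neither passed the low-count filter, so neither was tested, and the groups overlapped for both. Il17rb, the gene of the interleukin 25 receptor, was well measured, at 3.89, 3.84 and 3.65 CPM among controls and 8.12, 5.62 and 4.23 CPM among libraries labelled Klf5-KO. The groups did not overlap, but the difference did not pass (log2 fold change 0.66, SE 0.23, adjusted p = 0.060, edgeR). It passed with no low-count filter, with DESeq2 and without Klf5-KO replicate 3.

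Of the other markers, Nrgn showed the largest rise of all 36 genes. Nrgn encodes neurogranin, a calmodulin-binding protein best known from neurons (chromosome 9, 37544492 to 37552904), and was at 2.39, 2.55 and 1.86 CPM against 7.70, 8.18 and 4.56 CPM. The means differed 3.00-fold (log2 fold change 1.58, SE 0.24, adjusted p = 0.0018, edgeR). Dclk1, the microtubule-associated kinase gene most used to mark tuft cells, was at 28.2, 23.6 and 19.2 CPM among controls and 60.1, 44.2 and 29.8 CPM among libraries labelled Klf5-KO. The lowest Klf5-KO value lay just above the highest control (log2 fold change 0.92, SE 0.23, adjusted p = 0.019, edgeR), and the call was lost without Klf5-KO replicate 1 or control replicate 2.

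Kctd12, an auxiliary subunit gene of GABA-B receptors, was at 75.6, 69.2 and 97.7 CPM among controls and 115, 135 and 100 CPM among libraries labelled Klf5-KO. Control replicate 3 came within reach of Klf5-KO replicate 3 (log2 fold change 0.53, SE 0.15, adjusted p = 0.027, edgeR). The call of Kctd12 was lost without control replicates 1 or 2 and without Klf5-KO replicates 1 or 2. Avil, the gene of the actin-binding protein advillin, was at 19.6, 18.6 and 18.6 CPM against 34.9, 26.7 and 20.1 CPM (log2 fold change 0.52, SE 0.17, adjusted p = 0.051, edgeR). Chat, the choline acetyltransferase gene, was at 1.11, 1.05 and 0.597 CPM against 2.60, 1.82 and 1.20 CPM (log2 fold change 1.02, SE 0.34, adjusted p = 0.053, edgeR). Neither passed, although every Klf5-KO value exceeded every control value for both. Both passed with no low-count filter, with DESeq2, with robust dispersion and without Klf5-KO replicate 3. The summed level of 9 neuron and glia markers, whose cells also make acetylcholine, was 6.17 to 10.3 CPM among controls and 4.33 to 5.57 CPM among libraries labelled Klf5-KO, and none of 4 tested rose.

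**Figure D4:**
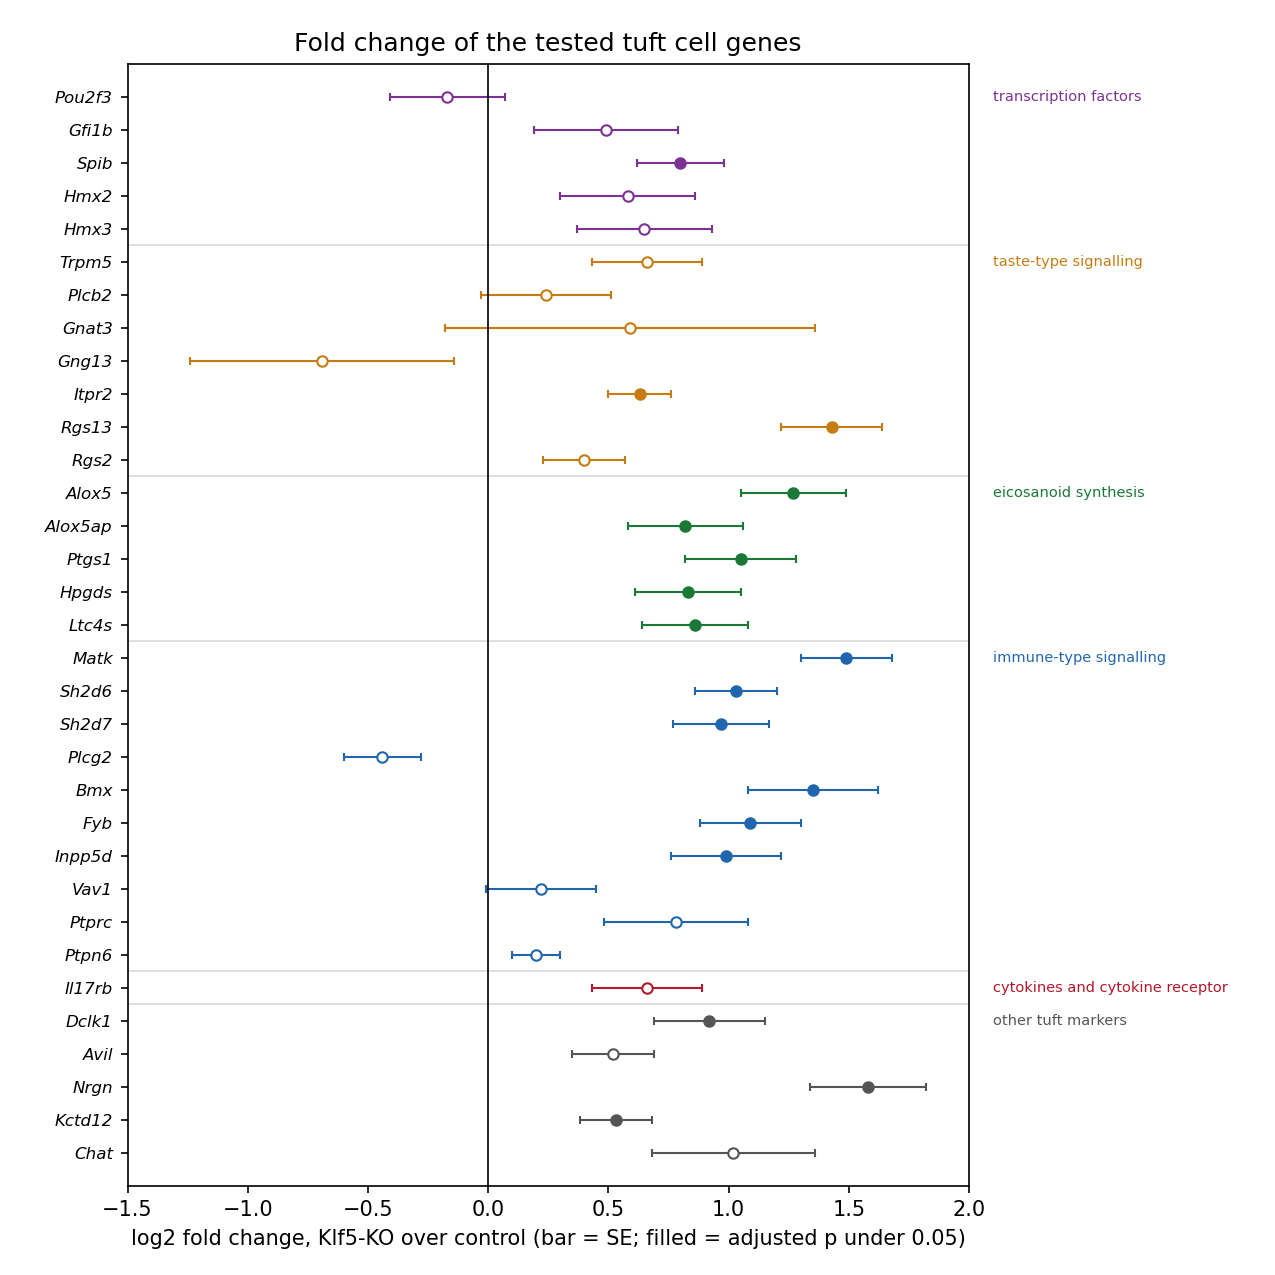
Log2 fold change (libraries labelled Klf5-KO over control) of the 33 tested tuft cell genes by role; bars are SE and filled symbols have an adjusted p under 0.05. The filled symbols run from 0.53 (Kctd12) to 1.58 (Nrgn), and Pou2f3, Gng13 and Plcg2 are the genes left of 0.

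Tuft cell genes outside the 36 rose more often than they fell. Of 25 further genes reported in tuft cells, 21 were tested, with a median log2 fold change of 0.39. Of the 21, 9 rose (42.9%) and 3 fell (14.3%), against 13.3% and 12.5% of all tested genes. Tuba1a, Cd300lf and Ildr1 had the smallest adjusted p among those that rose. Cd300lf, an immunoglobulin-family receptor gene, was at 2.12 ± 0.688 CPM among controls and 5.58 ± 1.14 CPM among libraries labelled Klf5-KO (log2 fold change 1.39, SE 0.27, adjusted p = 0.0056, edgeR). Tuba1a, a tubulin gene, rose from 8.52 ± 0.716 to 15.1 ± 3.01 CPM, and Ildr1 from 5.03 ± 0.713 to 9.34 ± 1.75 CPM. The 3 that fell, Krt18, Il4ra and Sox9 (log2 fold changes −0.51, −0.61 and −0.42), were named after their values were seen. Genes of this list, whether they rose or fell, can also be expressed by other crypt cells. Il4ra encodes a receptor chain for interleukins that expand tuft cells. Enteroendocrine markers, of a secretory lineage that shares crypt progenitors, went the other way, with 9 of 12 lower and none higher.

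Within each group, 1 library tended to hold the lowest value of many tuft cell genes. Klf5-KO replicate 1 had the highest Klf5-KO value for 30 of the 33 tested genes, against 33.6% of all tested genes, and Klf5-KO replicate 3 had the lowest for 31, against 30.7%. In the controls, replicate 3 was lowest for 26, against 37.6% of all tested genes. The summed level of the 36 genes was 417, 411 and 386 CPM among controls and 732, 617 and 472 CPM among libraries labelled Klf5-KO. The median coefficient of variation was 16.1% over the 33 genes among controls and 27.3% among libraries labelled Klf5-KO. Without Klf5-KO replicate 1, 11 genes were called higher, all among the 17. Alox5ap, Hpgds, Ltc4s, Inpp5d, Dclk1 and Kctd12 were those lost.

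**Figure D5:**
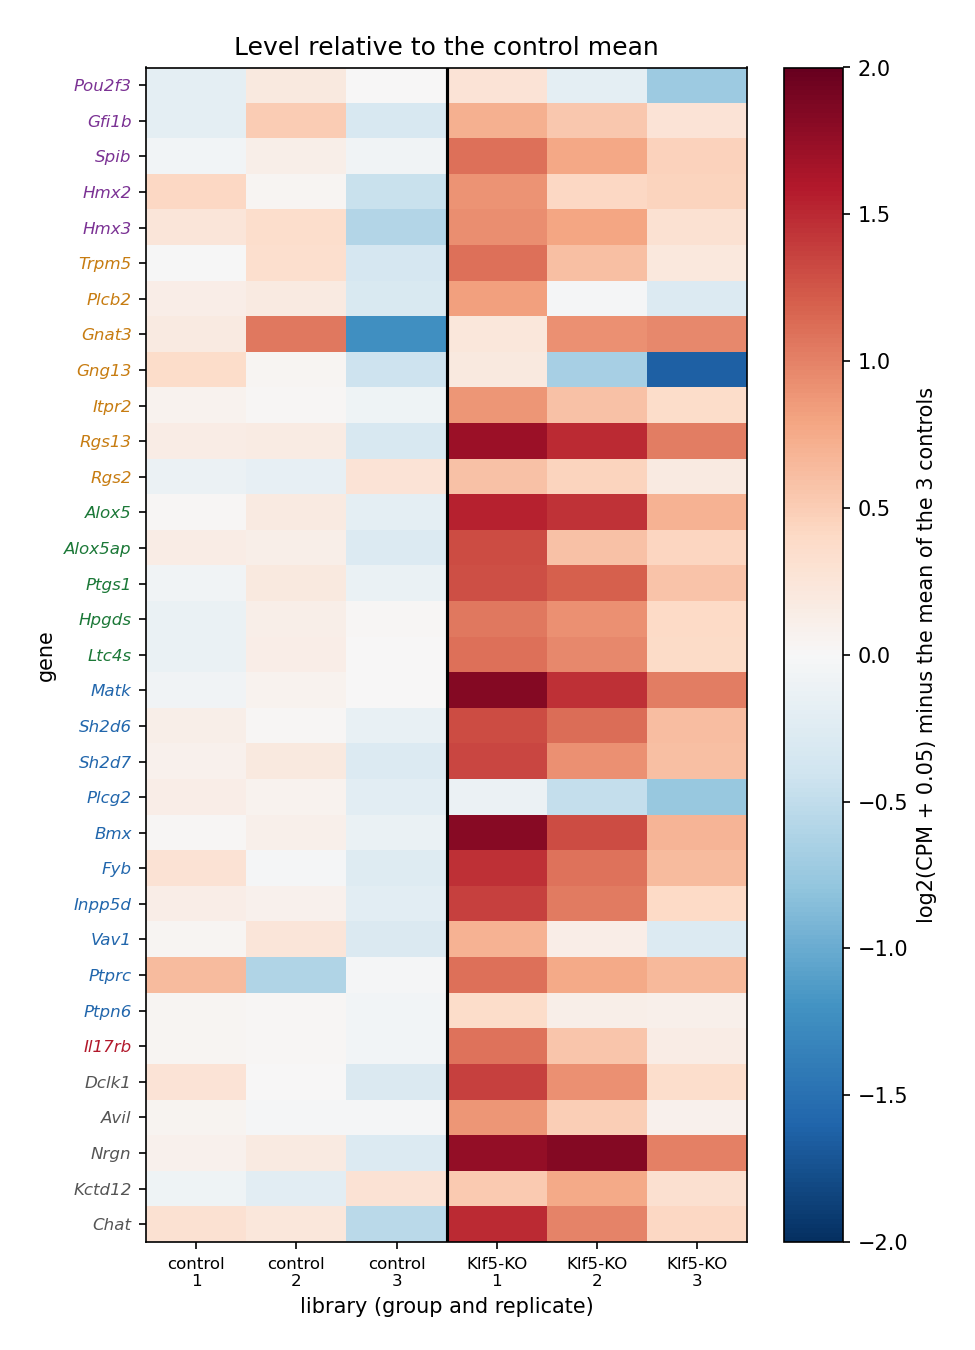
Level of the 33 tested tuft cell genes in each library, as log2(CPM + 0.05) minus the mean of the 3 controls, with gene names coloured by role. Klf5-KO replicate 1 is the darkest red column and Klf5-KO replicate 3 the palest, and the rows of Pou2f3, Plcg2, Gng13, Plcb2 and Vav1 are blue in Klf5-KO replicate 3.

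Per kilobase of exon, the order of levels shifted between groups. In the controls Kctd12 led at 13.3 ± 2.47 CPM per kilobase, followed by Plcg2 at 11.7 ± 1.48, Sh2d6 at 8.49 ± 0.756 and Ptpn6 at 7.66 ± 0.274 CPM per kilobase (SD, n = 3). Kctd12 and Plcg2 overlapped, as did Sh2d6 and Ptpn6. In the libraries labelled Klf5-KO Sh2d6 came second at 17.4 ± 4.06 CPM per kilobase and did not overlap with Ptpn6 at 8.81 ± 0.924, while Plcg2 at 8.67 ± 1.95 overlapped with it. Of 35 neighbouring pairs in the order, 30 overlapped among controls and 31 among libraries labelled Klf5-KO. Exon length here is that of all annotated exons of a gene, which can exceed the transcript made in these cells.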

How the data were processed

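Tuft cell genes were taken from deposited whole-number read counts per gene in 3 control and 3 Klf5-KO libraries. Per the submitters' processing notes, STAR 2.5.2a, mm10 and DESeq2 1.18.1 were used; the authors' counter was featureCounts 1.4.3-p1, per the file headers, set to the reverse strand of GENCODE vM16 annotation, with no option for read pairs or multi-mapping reads. Symbols came from GENCODE vM21 (53274 of 53379 IDs). Gene coordinates follow the count files.

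The test was that of edgeR 4.0.16 under R 4.3.3 (filterByExpr, TMM scaling, quasi-likelihood F test, group as the only term), with Benjamini-Hochberg adjustment over 19339 genes. The SE is the log2 fold change over the square root of F. CPM uses TMM-scaled library sizes, and the detection limit is 3 counts, covering counting error only. Gm26917 and Gm42418, similar to ribosomal RNA, made up 13.5 to 18.3% of each library. Every pair of libraries differed beyond sampling noise (lowest chi-square over its degrees of freedom 44.8). The script was tested on simulated counts. Alternatives used DESeq2 1.42.0, limma-voom 3.58.1, other scalings, filters and thresholds, the replicate block and each library left out; leaving out control replicate 3 with Klf5-KO replicate 2 was added after the values were seen.

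The members and gene lists were chosen with earlier results of these data known. The text names every member, Klf5 and Lgr5, and from each other list at most 3 called genes, those of lowest adjusted p, or failing any the gene of highest level; others were named after their values were seen. RefSeq promoter windows are those of GRCm38.p6. A planned comparison of protein sequences was not made.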

Additional observations from a re-analysis of the deposited data

How the results depend on the processing

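RLE, upper-quartile and total-count scaling, removal of structural RNAs, a filter of CPM above 1 in 3 libraries and limma-voom each left the 17 calls among tuft cell genes as they were, and robust dispersion added 2, for 19. With an adjusted p under 0.01, 10 of the 17 remained, with 0 transcription factors and 2 eicosanoid genes, and 1226 genes were called higher and 1118 lower over all genes. With no low-count filter, with DESeq2 and with the replicate block, 1 tuft cell gene was lower, the immune-type gene Plcg2, and with no filter 2 transcription factors were higher. Leaving out 1 library gave 11 to 21 genes higher and 0 to 1 lower (immune-type 0 to 1), 2 to 5 eicosanoid genes higher, and 1605 to 2740 genes higher and 1467 to 2664 lower over all genes. Without both control replicate 3 and Klf5-KO replicate 2, 2 eicosanoid genes were higher. With the replicate block 20 tuft cell genes were higher, 16 of them among the 17: Kctd12 was lost and Avil, Chat, Ptprc and Trpm5 were gained. The numbers share no source in the labels, and same-numbered libraries did not deviate together (correlations −0.00947, 0.00552 and −0.0408). Of 592 values of single genes under an alternative, 527 kept their direction and call, 31 lost a call, 30 gained one and 4 changed sign, none of them called: Pou2f3 (−0.45 to 0.06 over the libraries left out singly), Plcb2 (−0.16 to 0.45), Vav1 (−0.07 to 0.43) and Gnat3 (−0.05 without both libraries above, and up to 1.71 without control replicate 2). The causes were not tested. The median log2 fold change of the members ran from 0.63 to 0.87. Gnb3, Il25 and Tslp did not pass the low-count filter, so no call was made on them.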

Other observations

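Ratios between genes of the same library do not depend on how libraries are scaled, and some differed between the groups. The level of Pou2f3 relative to Dclk1, both per kilobase of exon, came to 1.02, 1.59 and 1.72 among controls, in replicate order, and to 0.667, 0.647 and 0.662 among libraries labelled Klf5-KO. The ratio of Plcg2 to Sh2d6 was 1.4, 1.43 and 1.31 among controls and 0.514, 0.457 and 0.531 among libraries labelled Klf5-KO. For Rgs13 to Rgs2 it was 1.46, 1.53 and 0.804 against 2.67, 2.55 and 2.20. Withamong libraries labelled Klf5-KO the Pou2f3 to Dclk1 ratio stayed nearly level, while Dclk1 itself ranged from 29.8 to 60.1 CPM.

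Plcb3 and Itpr3, of the same families as Plcb2 and Itpr2, stood at higher levels, but not every gene of these families did. Among controls, Plcb1 and Plcb4 averaged 0.558 and 1.87 CPM per kilobase against 1.12 for Plcb2, and Itpr1 4.79 against 4.31 for Itpr2. Among libraries labelled Klf5-KO, Plcb1 and Plcb4 averaged 0.556 and 1.71 against 1.32 for Plcb2, and Itpr1 5.54 against 6.65 for Itpr2. Plcb3, a phospholipase C gene, was 208, 212 and 266 times as high per kilobase as Plcb2 among controls and 105, 176 and 211 times as high among libraries labelled Klf5-KO. Itpr3, the gene of the inositol trisphosphate receptor best known from taste cells, was 15.8 to 18.1 times as high as Itpr2 among controls and 8.92 to 12.2 times as high among libraries labelled Klf5-KO.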
